A study of Mus musculus with 4 samples.

Results

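Regions of accessible chromatin called in 1 library of 4 were described in livers of female mice. Peaks of the 4 deposited lists were merged where they overlapped or touched, which gave 38853 regions. A region was kept when peaks of exactly 1 library overlapped it, and 10412 regions (26.8%) met this rule. ATAC-seq, in which the transposase Tn5 cuts open DNA and inserts sequencing adaptors, had been run on frozen liver of mice aged 11 weeks on the FVB background and standard chow. The groups were wild type (WT, 2 libraries) and a propionic acidemia model labelled PA (2 libraries), which the labels describe as hypomorphic Pcca-/- (A138T). Pcca encodes the alpha subunit of propionyl-CoA carboxylase. Whole liver was used, so a region open in a minority cell type and one open in few hepatocytes cannot be told apart. The regions were chosen by the peak calls themselves, that is by the presence or absence of a peak in each library, so their number in each library is a description and not a finding. The titles number 2 libraries per genotype, and p-values take these libraries as the units.

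Accessible regions are of several kinds. Promoters rich in CpG dinucleotides are open in most cell types and tend to be called in every library, while enhancers and CpG-poor promoters vary with cell type, feeding, hormones and time of day. A peak list holds only positions that passed a threshold.

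Promoter sequences are shown first, because promoters are where a call can be set against known sequence and where single calls with and without close neighbours can be seen side by side. For each library they are the 2 single-library regions highest in its list that covered at least 150 bp of a RefSeq promoter window, and Alb was added after its values were seen. Each line gives the 250 bases before the transcript start, 5′ to 3′ on the gene's strand, from the RefSeq promoter table of GRCm38.p6. Capitals mark CpG dinucleotides.

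Septin2 (chr1:93478743-93478992, + strand, called in PA 1): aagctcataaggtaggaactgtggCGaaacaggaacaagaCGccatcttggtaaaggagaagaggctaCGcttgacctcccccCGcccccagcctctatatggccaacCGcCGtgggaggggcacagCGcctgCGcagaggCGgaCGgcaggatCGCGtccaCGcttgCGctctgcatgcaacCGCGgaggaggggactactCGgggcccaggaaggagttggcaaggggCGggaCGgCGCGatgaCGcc

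Arrdc3 (chr13:80885845-80886094, + strand, called in PA 1): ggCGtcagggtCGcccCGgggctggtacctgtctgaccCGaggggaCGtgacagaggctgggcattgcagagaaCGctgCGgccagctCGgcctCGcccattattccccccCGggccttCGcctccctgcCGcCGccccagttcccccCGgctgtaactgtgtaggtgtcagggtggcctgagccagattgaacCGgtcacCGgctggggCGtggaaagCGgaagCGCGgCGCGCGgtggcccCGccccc

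Nfkbia (chr12:55492648-55492897, - strand, called in WT 1): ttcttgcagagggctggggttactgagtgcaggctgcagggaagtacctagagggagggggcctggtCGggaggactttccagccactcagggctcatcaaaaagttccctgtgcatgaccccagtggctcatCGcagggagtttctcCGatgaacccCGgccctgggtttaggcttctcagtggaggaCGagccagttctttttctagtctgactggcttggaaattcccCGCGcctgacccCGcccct

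Atp1b1 (chr1:164458356-164458605, - strand, called in WT 2): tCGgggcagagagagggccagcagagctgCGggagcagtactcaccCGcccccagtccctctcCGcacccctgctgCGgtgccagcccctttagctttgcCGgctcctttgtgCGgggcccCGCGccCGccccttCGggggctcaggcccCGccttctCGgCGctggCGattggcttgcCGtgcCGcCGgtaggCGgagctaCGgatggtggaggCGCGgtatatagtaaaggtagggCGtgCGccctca

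Map7d1 (chr4:126256305-126256554, - strand, called in WT 2): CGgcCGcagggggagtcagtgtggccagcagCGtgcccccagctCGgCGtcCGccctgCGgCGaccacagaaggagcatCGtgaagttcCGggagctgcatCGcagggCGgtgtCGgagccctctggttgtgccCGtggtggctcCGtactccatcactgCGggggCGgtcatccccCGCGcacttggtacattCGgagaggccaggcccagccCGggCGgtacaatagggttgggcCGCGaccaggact

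Brd2 (chr17:34122608-34122857, - strand, called in PA 2): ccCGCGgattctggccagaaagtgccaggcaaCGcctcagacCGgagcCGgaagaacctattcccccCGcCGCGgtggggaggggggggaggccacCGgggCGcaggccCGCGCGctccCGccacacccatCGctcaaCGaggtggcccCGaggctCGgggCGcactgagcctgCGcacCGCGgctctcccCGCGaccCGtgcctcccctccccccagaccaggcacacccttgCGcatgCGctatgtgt

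Osgin1 (chr8:119436897-119437146, + strand, called in PA 2): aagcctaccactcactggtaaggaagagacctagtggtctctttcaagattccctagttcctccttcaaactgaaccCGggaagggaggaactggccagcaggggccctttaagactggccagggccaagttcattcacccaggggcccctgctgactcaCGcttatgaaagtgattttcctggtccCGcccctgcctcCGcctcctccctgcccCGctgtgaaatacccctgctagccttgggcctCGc

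4930526I15Rik (chr9:124423537-124423786, + strand, called in WT 1): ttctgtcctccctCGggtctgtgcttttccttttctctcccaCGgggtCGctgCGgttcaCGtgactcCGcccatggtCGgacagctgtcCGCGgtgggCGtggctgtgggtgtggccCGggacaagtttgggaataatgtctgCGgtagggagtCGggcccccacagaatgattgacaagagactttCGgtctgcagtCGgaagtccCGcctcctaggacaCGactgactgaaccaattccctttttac

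Alb (chr5:90460620-90460869, + strand, called in PA 1): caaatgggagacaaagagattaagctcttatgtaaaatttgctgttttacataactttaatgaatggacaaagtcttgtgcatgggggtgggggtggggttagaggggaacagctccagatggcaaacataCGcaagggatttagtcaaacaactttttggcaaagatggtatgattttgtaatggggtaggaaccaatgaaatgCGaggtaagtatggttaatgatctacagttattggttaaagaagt

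In the first 4 of these promoters the single call stood beside calls of every other library. Nfkbia encodes the inhibitor IκBα, which holds NF-κB in the cytoplasm. The WT 1 peak there (chromosome 12, 55492425 to 55492824) stood 3.04% of the way down its list, and the other 3 libraries had a peak 191 bp away, at 1.83% of the WT 2 list, 4.71% of the PA 1 list and 1.78% of the PA 2 list. At Septin2, a septin GTPase gene whose start lies beside that of Hdlbp, the PA 1 peak stood at 2.12% of its list and the other libraries' peaks lay 89 to 92 bp away, at 1.59% to 2.41% of their lists. At Arrdc3, an arrestin domain gene, the gaps were 114 to 115 bp and at Atp1b1, the beta subunit of the sodium pump, 27 to 41 bp. Around Arrdc3 the other peaks stood at 2.59% to 3.07% of their lists, and around Atp1b1 at 3.13% to 9.46%. All 4 loci were therefore listed high in all 4 libraries, with 1 peak placed beside the others without overlap. The GC box GGGCGG was in all the 300-base windows of the 9 genes except Brd2 and Alb.

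The other 5 had no such neighbours in at least 1 library. The WT 2 region at Map7d1, a microtubule-associated protein gene, lay 410 bp from a WT 1 peak, 400 bp from a PA 2 peak and 5415 bp from the nearest PA 1 peak. The PA 2 region at Brd2, a bromodomain protein that binds acetylated histones, stood at 7.57% of the PA 2 list, with the nearest peaks 2807 bp (WT 1), 2856 bp (WT 2) and 12398 bp (PA 1) away. The PA 2 region at Osgin1, a growth inhibitor induced by oxidative stress, stood at 9.94% of the list and 23782 bp or more from any other library's peak. The WT 1 region at the long non-coding gene 4930526I15Rik stood at 3.5% of its list, 32572 bp or more from the next. At Alb, the albumin gene, the PA 1 region (chromosome 5, 90460562 to 90460961) covered the whole 300-base promoter window at 67.5% of the PA 1 list. The nearest PA 2 peak lay 2931 bp away and the nearest WT peaks 10236 bp (WT 1) and 10165 bp (WT 2). CpG numbers in the printed bases went from 27 at Brd2 to 6 at Osgin1 and 2 at Alb, the hepatocyte promoter of the set.

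Each library contributed such regions, and both PA libraries contributed more than either WT library with the lists as deposited, though not with lists of equal length. WT 1 had 2293 (8.73% of its peaks), WT 2 had 1696 (6.54%), PA 1 had 2731 (10.6%) and PA 2 had 3692 (12.4%). The mean was 1994.5 ± 422 in WT and 3211.5 ± 680 in PA (SD, n = 2). Neither PA value overlapped the WT values, but PA 2 also had the longest list, 29765 peaks against 25683 to 26280 in the others. When only the first 25683 lines of each list were used, the length of the shortest, the numbers were 2305 and 1989 in WT and 3338 and 2033 in PA, so that the genotypes overlapped and PA 1 was highest. In the upper 50% of each list they were 751 and 489 in WT and 1030 and 1484 in PA, again without overlap. Without PA 1, and by a rule of 1 library of 3, the difference between PA and WT went from 1217 to 2466.5 regions. The changed rule itself adds to this difference. Regions called in PA 1 and 1 other library alone then counted for that other library. These were 1315 for PA 2, 517 for WT 1 and 571 for WT 2. PA 1 had the shortest list and yet more single-library regions than either WT library. PA 1 was also the library most often missing where the other 3 had a call, in 2245 regions, against 1359 for WT 1, 1097 for WT 2 and 512 for PA 2. PA 1 was thus the library with most missing calls, and PA 2 the one with most calls of its own and fewest missing. Read depth is unknown, and its part in these numbers was not tested.

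**Figure D1:**
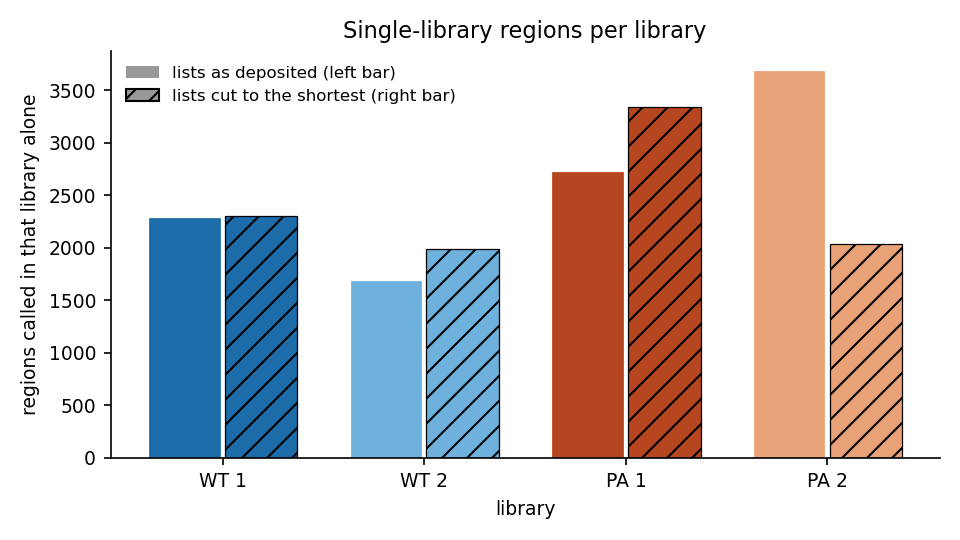
Number of regions called in 1 library alone, for each library (bars, 1 value per library, no error bar), with the lists as deposited and with every list cut to the length of the shortest. PA 2 falls from 3692 to 2033 and PA 1 rises from 2731 to 3338 when lists have equal length.

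Single-library regions came mostly from the lower end of the lists. The lists are not in genome order and no source used here says what orders them, so the place of a peak is given as a description. The median place was 86.0% of the way down the list for WT 1 and PA 1, 87.7% for WT 2 and 84.7% for PA 2. With each list divided into 10 equal slices, the last slice held 4110 of the regions (39.5%), and the first 5 slices held 979 (9.40%). In the first slice 0.334% of peaks were in a single-library region and 97.6% in a region of all 4 libraries, and in the last slice 38.2% and 16.2%. The share of single-library peaks in the last slice was lowest for WT 2 (28.5%), then WT 1 (35.4%), PA 1 (41.7%) and PA 2 (46.0%). The order of the libraries was the same in each of the last 6 slices and varied in the first 4. The values place most of these regions near the end of the lists in every library.

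**Figure D2:**
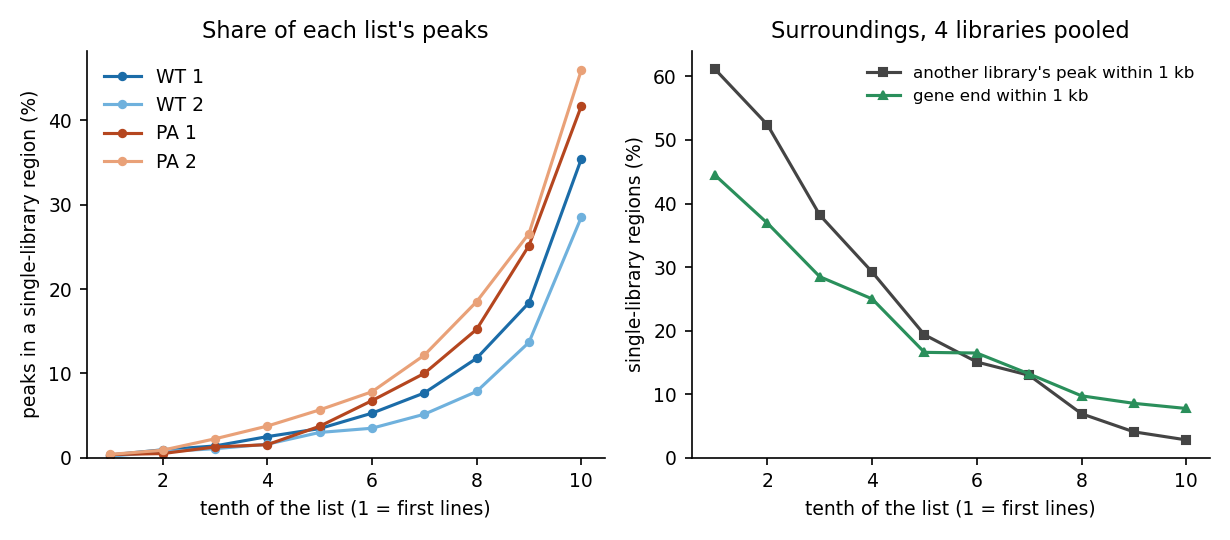
Left, percent of peaks that lie in a single-library region, by slice (10 per list), 1 line per library. Right, percent of single-library regions with another library's peak or a gene end within 1 kb, by slice, 4 libraries pooled. The share of single calls rises to 28.5% to 46.0% in the last slice, and neighbours and gene ends become rarer down the lists.

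High in the lists, many of these regions lay beside a peak of another library. Of all 10412 regions, 819 (7.87%, exact 95% interval 7.36 to 8.40, counting of regions only) had a peak of another library within 1 kb, and 371 had peaks of all 3 others there. In the first slice of the lists 22 of 36 regions had peaks of all 3 others within 1 kb, and in the last slice 12 of 4110 did. For 216 regions the neighbour was a region called in exactly the 3 other libraries, at a median gap of 144 bp, so that the missing call and the extra call lay side by side. WT 1 had 49 of these, WT 2 had 44, PA 1 had 75 and PA 2 had 48. Of the 216, 99 (45.8%) were near the end of a gene. For 155 of the 819 the nearest region was one called in all 4 libraries, so that the library with the single call had a peak of its own there too. No other library's peak lay within 1 kb of 9593 regions (92.1%), and the median gap over all regions was 13448 bp.

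The rule has a sharp edge, and few regions lay at it. Just inside it, 16 regions lay 1 to 10 bp from another library's peak and 291 (2.79%) lay within 200 bp. Just outside it, 2 regions of a pair of libraries were joined because their peaks touched and 4 because they overlapped by 1 to 10 bp. The median overlap of the peaks in the 5647 regions called in 2 libraries was 370 bp. Shared regions of a pair thus mostly had nearly superimposed peaks, and single calls mostly had none near.

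Gene ends were far less common among single-library regions than among regions called in all 4 libraries. A region was counted at a gene end when no more than 1 kb separated it from the start or stop of a protein-coding gene, which held for 27.2% of all regions. Among the WT 1 regions 272 (11.9%) were at a gene end, among the WT 2 regions 219 (12.9%), among the PA 1 regions 335 (12.3%) and among the PA 2 regions 292 (7.91%). Regions called in 2, 3 and 4 libraries had 13.4%, 17.5% and 44.3%. The mean of the 4 libraries was 11.2% ± 2.26 (SD, n = 4), 33.0 percentage points below the regions called in all 4, with the single-library share lower in 4 of 4 libraries (exact sign-flip permutation, two-sided, p = 0.13, the smallest that 4 libraries allow). The 4 differences share the same comparison value. The sets were not matched for place in the lists. Of the single-library regions, 44.4% of the 36 in the first slice were at a gene end, and 7.76% of the 4110 in the last slice. The share rose with the number of libraries, and the widest step lay between 3 and 4 libraries.

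Genotype did not separate these shares. The mean was 12.4% ± 0.743 in WT and 10.1% ± 3.08 in PA (SD, n = 2), a difference of -2.30 percentage points (exact permutation of the labels, two-sided, p = 0.667, where 0.33 is the smallest possible). PA 1 lay between the WT libraries and PA 2 below all others. Without PA 2 the difference was 0.875 percentage points, in the other direction. In PA 2, 47.9% of its regions lay inside genes, against 40.0% to 43.8% in the other libraries, and the share between genes was 44.1% to 47.1% in all 4.

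**Figure D3:**
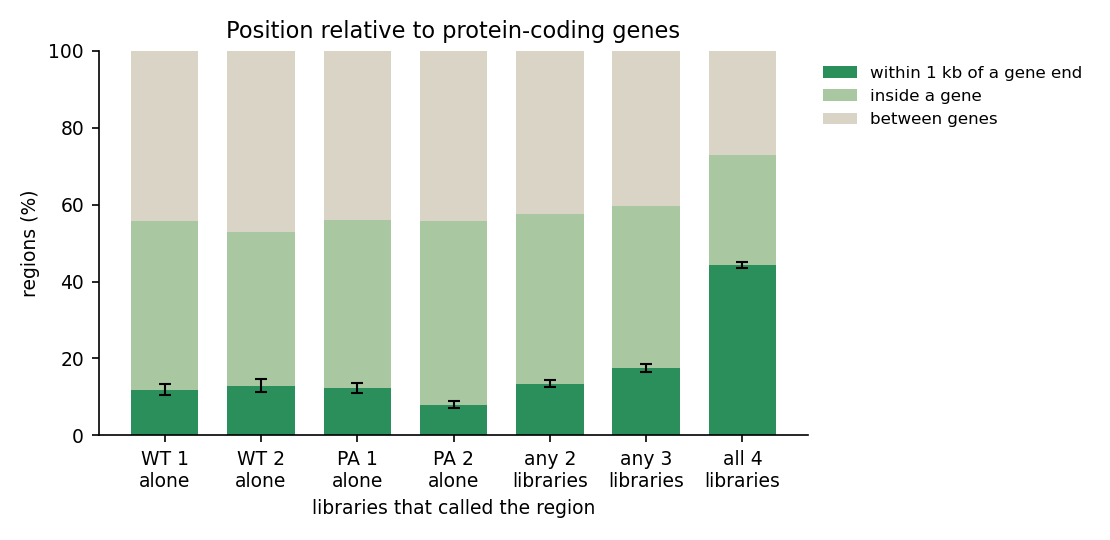
Percent of regions at a gene end (1 kb or less), inside a gene or between genes, for regions of each library alone and for regions called in 2, 3 or 4 libraries. Error bars on the lowest segment are exact 95% intervals for the counting of regions. The single-library shares at gene ends sit between 7.91% and 12.9%, below the 44.3% of regions called in all 4.

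Positions relative to transcript starts are given as descriptions, with no test. Transcript starts in the RefSeq promoter table, which covers all chromosomes used but 18, lay within 1 kb of 1084 of 10052 single-library regions (10.8%) and of 44.0% of regions in all 4. Around those starts, the centre was upstream for 51.4% of the single-library regions and for 71.9% of regions called in all 4. The upstream share was 56.1% and 54.2% in the WT libraries and 47.8% and 49.3% in the PA libraries. Of single-library regions at a gene end 60% were near a start in that table, against 82.0% for regions in all 4, the others being at the far end of a gene or at a start that the table does not list. Regions over 100 kb from any gene end made up 17.6% of single-library regions and 10% of regions in all 4. The median distance to the nearest other region called in all 4 was, for these sets in turn, 30360 and 25081 bp.

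Promoters with a single-library call had fewer CpG dinucleotides than promoters called in all libraries, and more than uncalled ones. Of 32619 RefSeq promoter windows (250 bases before to 50 after a start), 817 (2.5%) of 733 genes were overlapped by a single-library region and by no other region. They held 15.9 CpG on average and a median of 14, with 57.8% GC. Windows called in 2, 3 and 4 libraries held 17.5, 18.8 and 23.8 on average, and windows called in none held 7.36. The mean was 16.6 and 18.3 in the WT libraries and 15.5 and 13.8 in the PA libraries. Against all-4 promoters the difference was -7.75 ± 1.88 CpG per window and -4.69 ± 1.55 percentage points of GC (SD over libraries, n = 4), lower in 4 of 4 libraries (exact sign-flip permutation, two-sided, p = 0.13 for each, the smallest possible). The ratio of observed to expected CpG was 0.558 ± 0.0354 against 0.778 (exact sign-flip permutation, p = 0.13). As at gene ends, the 4 differences share the same comparison value, and the sets were not matched for place in the lists. CpG-poor windows, with under 10 CpG, were 38.8% of single-library promoters, 10.2% of those called in all 4 and 77.5% of uncalled ones.

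Calls with a neighbour and isolated calls had different CpG means, a description with no test. The 111 single-library promoters with another library's peak within 1 kb held 21.8 CpG on average, and the 706 without held 15. Single promoters of both kinds varied widely. Of those printed above, Arrdc3 (35 CpG in the whole window), Map7d1 (32), Atp1b1 (31), Septin2 (29) and Nfkbia (15) had a neighbour, and Brd2 (32), 4930526I15Rik (21), Osgin1 (6) and Alb (3) had none. Long non-coding genes owned 24.0% of single-library promoters, 11.6% of all-4 promoters and 46.8% of uncalled ones.

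**Figure D4:**
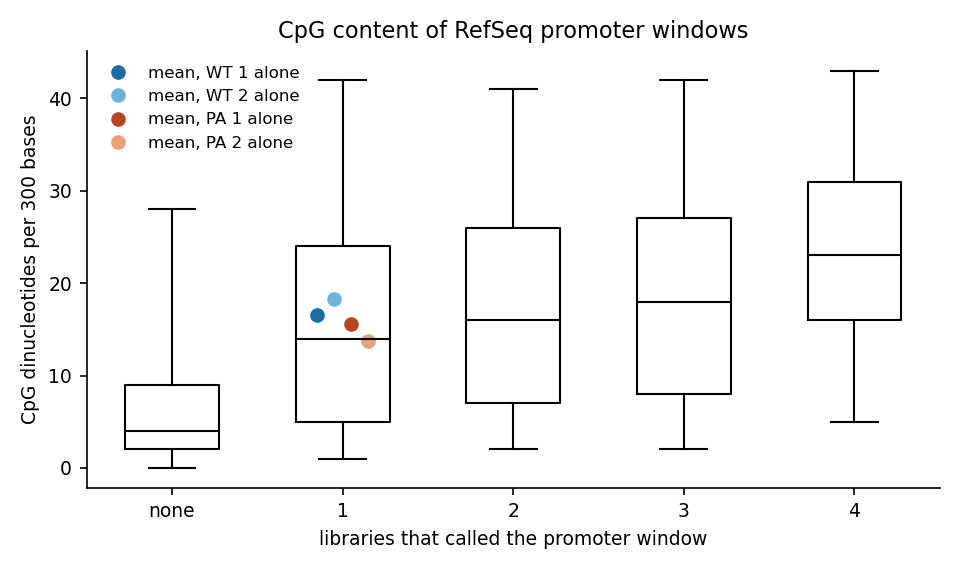
CpG dinucleotides per 300-base RefSeq promoter window, by the number of libraries that called it (box, quartiles and median over windows; whiskers, 5th to 95th percentile), with the mean of each library's own single-library windows as points. The medians rise from 4 in uncalled windows to 14 with 1 library and 23 with 4, and the 4 points lie between 13.8 and 18.3.

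The GC box and the ETS motif were less common in single-library promoters than in all-4 promoters, as CpG was. Motifs were searched by their letters on both strands of the 300-base windows, and none contains another. The GC box, the ETS motif and the E-box each contain a CpG, so their shares are not independent of the CpG numbers above. The GC box GGGCGG, which Sp and KLF factors bind, was in 48.5% of single-library promoters, 70.7% of all-4 promoters and 35.9% of all windows. The ETS motif CCGGAAG was in 10.8%, 21.1% and 8.92%. The CCAAT box, the NF-Y motif, was in 31.2%, 41.8% and 37.6%, so single-library promoters lay below all windows as well. The TATA box TATAAA was in 10.3%, 5.49% and 13.7%. The E-box CACGTG, which clock and MYC family factors bind, was in 9.30%, 10.8% and 7.20%. The GC box, ETS motif and CCAAT box were rarer than in all-4 promoters in 4 of 4 libraries (exact sign-flip permutation, two-sided, p = 0.13 each). For the TATA box 3 of 4 libraries lay above (exact p = 0.250), and for the E-box 3 of 4 lay below (exact p = 0.375). A match is a description of letters and not a bound site.

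The isolated regions highest in the lists were taken next, 5 of each library, with no other library's peak within 1 kb and a gene end within 50 kb. In WT 1 they were assigned to Gm20783 (9 bp from its end, the same region as at 4930526I15Rik), Cwc27 (a spliceosome-associated protein), Igfbp1 (a secreted insulin-like growth factor binding protein), Apoe (apolipoprotein E) and Crip2 (a LIM domain protein), at 3.5% to 9.55% of the list. The Igfbp1 region (chromosome 11, 7194473 to 7194872) lay 2915 bp from the gene, with peaks of the other libraries 2615 to 2658 bp off at 7.27% to 11.2% of their lists. The Apoe region (chromosome 7, 19698932 to 19699331), inside the gene, had WT 2 and PA 2 peaks 1574 and 1580 bp away and its nearest PA 1 peak 16211 bp away. Every library had a peak at an end of Cwc27 and of Igfbp1.

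In WT 2 the regions were assigned to Rgs3 (a regulator of G protein signalling), Etnk2 (ethanolamine kinase), Trip10 (a Cdc42 effector), Apoc3 (apolipoprotein C-III) and Akt1 (a kinase of the insulin pathway), at 9.61% to 18.4% of the list. The Apoc3 region (chromosome 9, 46235204 to 46235603) lay 33 bp from the gene's end at 13.1% of the WT 2 list, and it was the only call near an end of Apoc3. The nearest peaks of the other libraries were 4902 bp (PA 2), 4925 bp (WT 1) and 19170 bp (PA 1) away. The Trip10 region overlapped an end of its gene, with the other libraries' peaks 4556 to 4557 bp away, at 4.96% to 23.2% of their lists. WT 1 and PA 2 had a peak within 5 kb of both regions, but none within 1 kb of an end of Apoc3 or Trip10.

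In PA 1 the regions were assigned to Slc29a1 (the nucleoside transporter ENT1), Kri1 (a ribosome biogenesis factor), Mfsd3 (a membrane transporter family member), Plod1 (a collagen lysyl hydroxylase) and L3mbtl3 (a reader of methylated lysine), at 11.7% to 21.4% of the list. The first 4 overlapped an end of the gene or lay 14 bp from it, and at each the only call near an end was that of PA 1. The Plod1 region (chromosome 4, 147936564 to 147936963) lay 31391 bp from the nearest WT 1 peak, 31527 bp from WT 2 and 31531 bp from PA 2. The Kri1 region lay 2801 to 2850 bp from peaks that stood at 0.478% to 1.03% of the other lists.

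In PA 2 the regions were assigned to Hjurp, Esrp2 (an epithelial splicing regulator), Med29 (a Mediator subunit), Tymp (thymidine phosphorylase) and Brd2, at 5.48% to 7.57% of the list. The Hjurp region lay inside Mroh2a. The Esrp2 region (chromosome 8, 106136736 to 106137135) lay 58 bp from an end of the gene, with peaks of the other libraries 1132 to 1162 bp away at 5.48% to 11.3% of their lists. The Tymp region (chromosome 15, 89376046 to 89376445), 591 bp from its gene's end, had its nearest neighbours 20156 to 20186 bp away. Esrp2, Tymp and Brd2 were called near an end in PA 2 only.

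The single-library region nearest the top of each list had close neighbours. In WT 1 it was line 3 of the list, at chromosome 2, 98666083 to 98666482, over 1 Mb (1034411 bp) from any end of a protein-coding gene, and all the other libraries had a peak 481 to 500 bp from it among their first lines (0.00385% to 0.0234% of the list). In WT 2, PA 1 and PA 2 it was the region at Atp1b1, at Hdlbp and Septin2, and 15766 bp from Trim55, and in each the other libraries had peaks within 129 bp. Each of these 4 regions thus had peaks of all 3 other libraries within 500 bp. No peak was filtered out here for its position. Whether the chromosome 2 locus is open chromatin or an artifact was not tested.

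Few genes had a single-library region near an end. Of 21631 protein-coding genes, 1187 (5.49%) had such a region within 1 kb of an end, and for 812 (3.75%) exactly 1 library had a peak there, namely WT 1 for 194 genes, WT 2 for 176, PA 1 for 248 and PA 2 for 194. For 41.3% all 4 libraries did, and 51.7% had a peak there in any library. The genes with a single-library region near an end were 2 of 28 for breakdown of propionate and branched-chain amino acids, 2 of 25 for fatty acid oxidation and ketogenesis, 1 of 16 for gluconeogenesis and glycogen and 0 in the urea cycle, fatty acid and cholesterol synthesis and ribosomal protein lists. Among 6 metabolic and ribosomal lists the genes called in exactly 1 library were 0 of 28 for the first of these, 0 of 15 for the urea cycle, 0 of 16 for gluconeogenesis and glycogen, 0 of 21 for fatty acid and cholesterol synthesis, 0 of 22 for ribosomal proteins and 1 of 25 for fatty acid oxidation and ketogenesis. The 1 gene was Bdh1, a ketone body dehydrogenase, at 61.9% of the PA 2 list. In these lists single-library regions also lay near Ivd (PA 2, 66.1%), an enzyme of leucine breakdown, Mmab (WT 1, 99.8%), an enzyme of cobalamin handling, Acadl (PA 1, 10.3%), a fatty acid dehydrogenase, and Pklr (WT 1, 61.4%), liver pyruvate kinase. All 4 genes were called near an end in all libraries. At Ivd, Mmab and Pklr the same library had another call higher in its list, and at Acadl the highest PA 1 call was this region itself. The Acadl region overlapped the gene's end and lay 114 bp from peaks of all 3 other libraries.

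Liver genes outside core metabolism had some, to be read against the 3.75% of all protein-coding genes called in exactly 1 library. Of 23 sex-biased liver genes 3 had a call in exactly 1 library, and all 3 were in PA 2. Among them were Sult3a1, a sulfotransferase (92.5% of the list), and Mup20, a major urinary protein (94.3%). PA 2 called 10 of these 23 genes, WT 1 called 6, WT 2 called 7 and PA 1 called 4. PA 2 was thus highest and PA 1 lowest, and the PA libraries lay on both sides of the WT ones. Of all 21631 protein-coding genes PA 2 called 10172, WT 1 called 9997, WT 2 called 10027 and PA 1 called 10024. The difference in this list rests on few genes and is a description only. Among 25 acute phase and inflammatory genes, 2 had their only call in 1 library, Itih4 (WT 2, 27.5%) and the cytokine gene Il6 (PA 1, 88.4%). The transcription factor gene Stat3 (PA 1, 70.0%) and Nfkbia (WT 1, 3.04%) had single-library regions and were called in all 4 libraries. Of 20 clock genes 1 had its only call in 1 library, Rora, a nuclear receptor gene (PA 1, 97.3%). Of 20 hepatocyte markers 2 were called in exactly 1 library, Alb and Apoc3. Tat, the tyrosine aminotransferase gene, had a single-library region 222 bp from an end at 11.8% of the PA 2 list, and peaks near its ends in WT 1 and PA 1 as well.

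Among marker genes of minority cell types some calls were single-library calls, most of them low in the lists. The numbers of genes with a call in any library are to be read against the 51.7% of all genes. For Kupffer cells and macrophages 7 of 15 genes had a call and 2 had it in 1 library alone, Timd4, a phosphatidylserine receptor (PA 1, 83.2%), and Fcgr1, an Fc receptor (WT 2, 93.2%). For lymphocytes it was 4 of 18 and 1, the kinase gene Lck (WT 1, 84.0%). For neutrophils and erythroid cells 2 of 16 genes had a call, both in PA 1 alone, among them S100a8, a calcium-binding protein of neutrophils (96.0%). Liver endothelial genes were called in 5 of 15 cases, 2 of them in PA 1 alone, the VEGF receptor gene Flt1 (58.4%) and the hyaluronan receptor gene Lyve1 (83.8%), and Kdr had a WT 2 region and calls in all 4 libraries. Stellate cells had 3 of 15 and 1, the retinol esterifying enzyme gene Lrat (PA 2, 99.6%), and bile duct cells 3 of 12 and 0. PA 1 had a call at 5 endothelial genes and 2 neutrophil and erythroid genes, where the other libraries had 3 and 0. At Kupffer cell genes PA 1 had 2, against 3 to 4. At lymphocyte genes PA 1 had 2, against 3 in WT 1, 3 in WT 2 and 1 in PA 2. At stellate cell genes PA 1 had 1, as WT 1 did, against 2 in WT 2 and 3 in PA 2. At bile duct genes every library had 2 or 3. Of all 21631 protein-coding genes PA 1 called 10024, and the others 9997 to 10172. The part of cell content in these calls was not tested.

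Neuronal and developmental genes were listed as markers of other tissues. Of 20 neuronal genes 9 had a call in any library, and 5 were called in exactly 1 library, among them Lsamp (PA 1, 88.9%) and Kcnq3 (WT 2, 92.3%), and 2 in all 4. Of 25 developmental homeobox, PAX and SOX genes 3 had a call and each had it in 1 library, Pax8 (PA 2, 86.1%), Sox3 (PA 1, 90.5%) and Hoxa13 (WT 1, 99.9%). All of these named genes stood at 86.1% of their lists or further down. Olfactory and vomeronasal receptor genes had 2 such calls among 1465 genes, Olfr433 (PA 1, 82.2%) and Olfr94 (WT 1, 90.5%). Read against the background of 3.75%, the shares of the small lists rest on 0 to 5 genes each and are descriptions only.

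**Figure D5:**
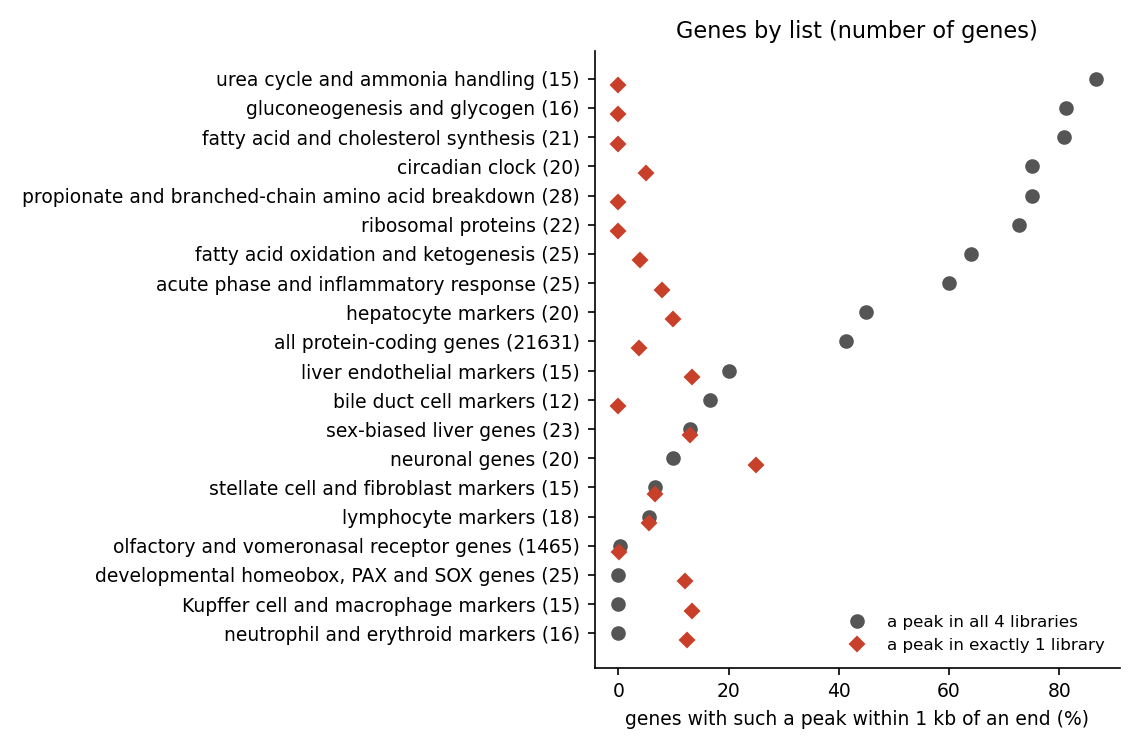
Percent of genes in each list (number of genes in brackets) called within 1 kb of an end in all 4 libraries (circles) and in exactly 1 library (diamonds). Over all 21631 protein-coding genes the values are 41.3% and 3.75%. The diamonds lie to the right of the circles for the Kupffer cell, neutrophil and erythroid, developmental and neuronal lists. They lie to the left for the endothelial and bile duct lists.

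Genes that held many single-library regions were long, and the lengths of genes holding other kinds of region were not compared. Single-library regions lay inside or within 1 kb of 4087 protein-coding genes (18.9%), whose median length was 61.1 kb against 17.3 kb for all, and the 90 genes with 5 or more had a median of 389 kb. The most, 9 each, were in Cblb (a ubiquitin ligase), Thrb (the thyroid hormone receptor beta), Dnm3 (a dynamin), and the transcription factor genes Nfia and Zbtb20. Aopep, Arhgap26 and Pde4d (a cyclic AMP phosphodiesterase) had 8 each, and Sik3 (a salt-inducible kinase) and Nfib 7 each. In Cblb, the shortest of the 10 at 177 kb, 9 of 12 regions were single-library calls, with 4 from WT 2, 2 each from WT 1 and PA 1, and 1 from PA 2. In Zbtb20, at 759 kb, it was 9 of 28, with 9 others called in all 4. Libraries were mixed in all 10 genes, and Pde4d was the most one-sided, with 6 of 8 in PA 2.

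The mutated gene held 4 single-library regions. They were in Pcca, at chromosome 14, 122628107 to 122628506 (WT 2, 94.4% of its list), 122649483 to 122649882 (PA 2, 79.2%), 122862657 to 122863056 (PA 1, 79.8%) and 122876187 to 122876586 (PA 2, 74.3%). All lay inside the gene, 13358 bp or more from its ends and 13130 bp or more from any peak of another library. Pccb, the gene of the beta subunit, held none. The 4 regions came from 3 libraries and stood at 74.3% or further down the lists. Pcca is a long gene (122484365 to 122889944), and 190 genes held 4 or more single-library regions. Over all protein-coding genes 18.9% held any, and 26.8% of all merged regions were single-library calls, so the counts are descriptions only.

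Chromosomes differed little. The share of merged regions that were single-library calls went from 24.1% on chromosome 8 to 28.8% on X.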

How the data were processed

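The data were 4 lists of ATAC-seq peak positions, 1 per liver library (2 WT, 2 PA), as deposited by the authors, with chromosome, start and end and no score, count or other measurement. The submitters' processing notes name GRCm38 (mm10) and, in no stated order, HOMER 4.10, bedtools 2.31.0, cutadapt 3.5, R 4.1.2, Bowtie2 2.5.1 and SAMtools 1.17. No source used here gives the caller, its threshold, read filters or any Tn5 shift, and depth is unknown. Coordinates are printed counted from 1.

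Group and replicate came from the sample titles. Peaks were merged where they overlapped or touched, with Python 3.11.15, pandas 2.3.3, numpy 2.4.6 and scipy 1.17.1. Peaks were set against RefSeq genes of GRCm38.p6 (21631 protein-coding genes, by symbol) and its promoter table. Of 351 genes in the lists 351 matched, 1 by an older symbol, and 1465 receptor genes were taken by symbol pattern. The rule for merging was tested on simulated lists. Positions and sequences were compared over libraries by exact sign-flip or label permutations, and the number of regions per library, which the rule itself sets, is given with no p-value. A sign-flip p-value at its smallest shows that all differences share a sign, and not how widely they spread. Intervals on shares are exact Clopper-Pearson 95% intervals and cover the counting of regions only.

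The regions and gene lists were chosen with earlier results of these data known. Genes were named by rule: per library the 5 isolated regions highest in the list, list genes with a region within 1 kb of an end (up to 4 per list), the 10 genes with most regions, Pcca and Pccb, and the 2 highest promoters per library. Some genes that the rule named are not reported here. No region held more than 1 peak, so the rule for long regions named none. Alternatives were lists of equal length, the upper 50% of each list, merging across 200 bp, 50% coverage, 2 kb windows, and leaving out each library.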

Additional observations from a re-analysis of the deposited data

How the results depend on the processing

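The number of single-library regions was 10412 as deposited, 9665 with lists of equal length, 10121 merging across 200 bp, 11268 when 50% coverage was needed, and 3754 in the upper 50% of each list, where a call past the cut no longer counts. Leaving out 1 library gave 10106 to 11286, by a rule that then asks for 1 of 3. The difference between PA and WT in regions per library was 1217 and fell to 538.5 with equal lists. It was 814.5 to 2466.5 on leaving out 1 library. It was largest without PA 1, where regions shared by PA 1 and PA 2 alone counted for PA 2. The share at gene ends, PA minus WT, was -2.30 percentage points. It reversed to 2.56 in the upper 50% of the lists and ranged from -4.09 to 0.875 on leaving out 1 library, reversed without PA 2, and the cause was not tested.

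Libraries of the same replicate number did not deviate together (correlation of deviations from the group means -0.00688 over regions), so the numbers were not taken as pairs. With the replicate number as a block, the differences were 438 and 1996 regions (mean 1217) and 0.404 and -5.0 percentage points at gene ends (mean -2.30, exact sign-flip p = 1.0), and no call changed. The mean of the libraries' median places was 86.1% and 82.7% to 85.4% on leaving out 1 library. The share within 1 kb of another library's peak was 7.87%. It moved to 5.22% merging across 200 bp, 14.9% with 50% coverage and 11.7% at 2 kb, as these settings by construction take away, admit or reach more neighbours. The lower share at gene ends than in regions of all libraries, and the lower GC and CpG ratio of promoters, kept their direction in every alternative run for them. With 2 libraries per genotype the exact label permutation cannot pass 0.05.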

Other observations

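In 8 of the 190 genes with 4 or more single-library regions, all of them came from 1 library, a set picked out after its values were seen. Hecw2, a ubiquitin ligase gene of chromosome 1, held 5, all of PA 1, and no region called in all 4 libraries. Ttll5, a tubulin glutamylase gene, held 4 of PA 1. The others held 4 of PA 2 each. They were Dera (deoxyribose-phosphate aldolase), Dnah3 (a dynein heavy chain), Itpr1 (an inositol trisphosphate receptor), Mbnl2 and Rbm47 (RNA-binding proteins) and Setbp1. In Dera, Dnah3 and Ttll5 these were 4 of 5 regions. None was of a WT library, and PA 1 and PA 2 are the libraries with most single-library regions.

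How often regions of 1 library lay near each other depended on the distance, a description with no test. Of PA 2 regions, 5.20% had another PA 2 region within 10 kb, and 5.49% to 6.07% of the regions of the other libraries had one. Within 100 kb the share was 42.3% for PA 2 regions, against 35.8% to 37.4% for the others, and for PA 1, WT 1 and WT 2 too it was higher for the library's own regions (30.6%, 25.5% and 21.6%) than for those of any other library (at most 29.9%, 24.9% and 20.5%). The windows of 1 Mb with most held 19 each, at 36 Mb of chromosome 15 (3 of WT 1, 4 of WT 2, 6 of PA 1 and 6 of PA 2, of 44 regions in all) and at 83 Mb of chromosome 17 (4, 5, 1 and 9, of 41). These windows were picked for their counts, and 26.8% of all merged regions were single-library calls. Of 1005 microRNA hairpins in the RefSeq table, 42 were overlapped by a region of any kind, and 8 by a single-library region. These counts too are to be read against the 26.8%. Of the 8, 5 were overlapped by a region of PA 2, which holds 35.5% of all single-library regions, 2 by one of WT 2 and 1 by one of WT 1. The 8 hairpins were those of Mir8120, Mir293, Mir449c, Mir7212, Mir3081, Mir7k, Mir6392 and Mir6956.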
